A study of Mus musculus with 6 samples.

Results

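The genes described here are 28 members of the liver's fatty acid oxidation programme: the nuclear receptor gene Ppara, targets and partners of that receptor, the enzymes of mitochondrial, peroxisomal and omega-oxidation of fatty acids, and 1 gene of ketone body metabolism. They were picked by name, with earlier results of these data known, from the 27332 genes that have a probe on the array. A gene was read from its probe with the highest mean over the 6 arrays, and synonyms of a name counted. All 28 had a probe, and all 28 were well above background on all 6 arrays by the flag of the scanner software, so no member was lost to the filter on dim probes that left 18888 genes for testing.

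PPAR alpha is a transcription factor of hepatocytes that binds fatty acids and, paired with a retinoid X receptor, switches on genes that burn them. Long-chain fatty acids enter mitochondria as carnitine esters and are shortened there by beta-oxidation, very long chains are shortened first in peroxisomes, and a side route in the endoplasmic reticulum oxidises the far (omega) end of the chain. During fasting the liver turns the resulting acetyl units into ketone bodies, and several of the same genes are induced.

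The livers came from male BALB/c mice that entered the study at 6 weeks of age. The MC-LR group drank water with 100 µg/L of microcystin-LR, a cyanobacterial toxin that inhibits protein phosphatases, for 12 months, and the control group drank sterile water for the same 12 months. Each group has 3 livers, from independent mice, and RNA of every liver was labelled with 1 dye and measured on a separate Agilent mouse array. The comparison addresses which liver genes differ after long exposure to the toxin. Its p-values measure the spread between the arrays of these mice only, which includes any difference between slides.

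On each array 64.9% to 73.7% of spots were well above background and 0 were saturated, and the number of arrays limits the precision. Of 10 hepatocyte markers, 8 had a probe, and all 8 were well above background on every array. Of 6 skeletal or cardiac muscle markers, 3 (Ckm, Myh6 and Mb) were not well above background on any array. The other muscle markers were so on some arrays, and 0 of the 6 on all. Of 6 adipocyte markers, 3 were well above background on all 6 arrays. The summed signal of 6 Kupffer cell and macrophage markers, all above background throughout, was 13127 to 19547 on MC-LR arrays and 19978 to 26855 on control arrays, and its part in the members' values was not tested. In whole liver, fewer cells of a type and less RNA per cell cannot be told apart. Controls 1 and 2 lay on slide 1, whereas control 3 and all MC-LR arrays lay on slide 2, so control 3 is the sole control hybridised beside the MC-LR livers.

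No member of the fatty acid oxidation programme was called different between MC-LR and control livers. A gene is called at a Benjamini-Hochberg adjusted p under 0.05 from limma, fitted over all genes, and 0 of 28 members reached it, where 3 of 18888 genes did (0.0159%). The members came closest at an adjusted p of 0.279 for Pdk4 and 0.300 for Cyp4a12b (limma). At an unadjusted limma p under 0.05, 1 member was higher with MC-LR (Cyp4a12b) and 1 was lower (Pdk4), where 7.51% of all genes were higher and 5.37% lower. In 2 members, Cyp4a12a and Cyp4a12b, all 3 MC-LR values lay above all 3 control values, an arrangement found in 11.3% of all genes. In 1 member, Pdk4, all 3 MC-LR values lay below all 3 control values, as in 9.23% of all genes.

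The log2 differences (MC-LR minus control) of the members ranged from -1.33 to 0.63 with a median of 0.07, against a median of -0.01 over all genes tested. Of the 28, 18 lay above 0 and 10 below, so 64.3% were above 0, against 48.6% of all genes. The members' values varied widely inside the control group. In 24 of 28 (85.7%) the standard deviation among controls exceeded that among MC-LR livers, which held for 56.0% of all genes. The median standard deviation of the members was 0.113 log2 units in MC-LR livers and 0.420 in control livers, where all genes had medians of 0.163 and 0.185 in MC-LR and control livers. These are descriptions of a list chosen by name, without a test of the list.

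**Figure D1:**
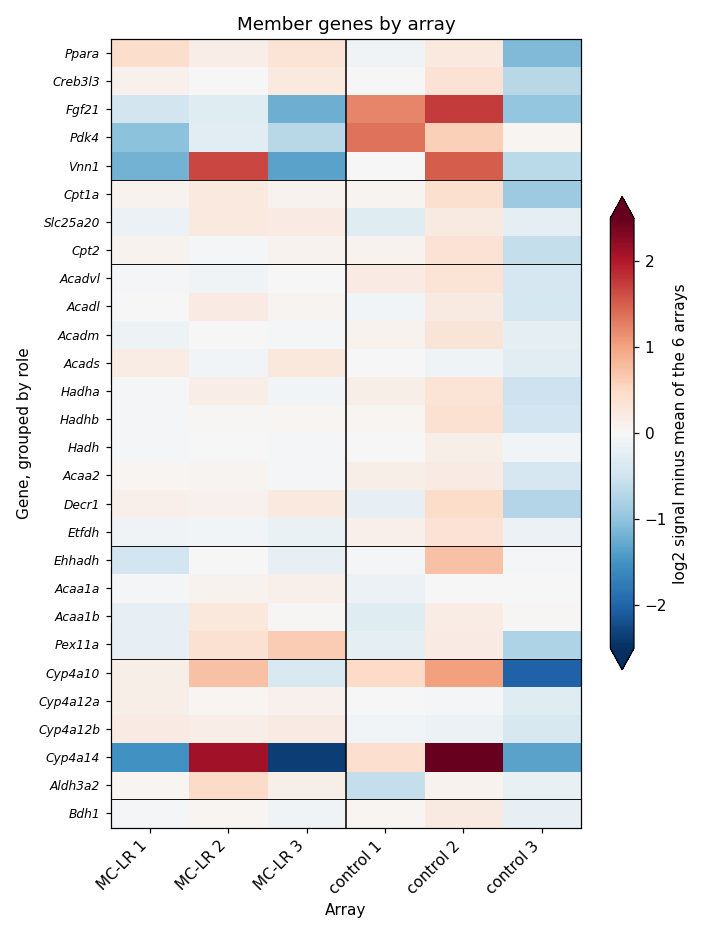
Heat map of the 28 member genes (rows, grouped by role with horizontal lines) on the 6 arrays (columns, MC-LR left and control right of the vertical line). Colour gives the normalized log2 signal minus the gene's mean over the 6 arrays. Control 3 is blue in most rows and is the lowest array in 18 of 28 genes, control 2 is the highest in 17, and the strongest colours in the MC-LR columns are those of Vnn1, Cyp4a14, Fgf21 and Pdk4.

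The receptor itself was measured by a probe that the files place at chr15:85631955-85632014 (mm9). Ppara had normalized log2 signals of 14.31, 14.05 and 14.21 in MC-LR livers 1, 2 and 3, against 13.79, 14.13 and 12.78 in control livers 1, 2 and 3. The groups overlapped through control 2, and control 3 lay 1.18 log2 units below the mean of the other controls. The mean was 14.19 ± 0.13 in MC-LR livers and 13.56 ± 0.70 in control livers (SD, n = 3 each). The log2 difference was 0.63 ± 0.35 (SE), or 1.54-fold, with an adjusted p of 0.493 (limma). Without control 3 it was 0.23, and with slide as a block, which leaves the MC-LR arrays against control 3, it was 1.41, neither of them called.

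Pdk4 encodes pyruvate dehydrogenase kinase 4, which spares glucose by blocking the entry of pyruvate into the citric acid cycle and is induced by PPAR alpha during fasting. Its probe lies at chr6:5433441-5433500 (mm9). Signals were 7.36, 8.09 and 7.69 in MC-LR livers 1, 2 and 3, against 9.74, 8.98 and 8.42 in control livers 1, 2 and 3. The groups did not overlap, and the gap between the highest MC-LR liver and the lowest control was smaller than the spread inside either group. The difference was -1.33 ± 0.36 log2 units (SE), so that the MC-LR mean was 0.398 of the control mean (unadjusted p = 0.0105, adjusted p = 0.279, limma). It ran from -1.64 to -0.71 over the 16 alternative settings and was called in 0 of them. Because the groups are apart, neither leaving out an array nor using control 3 alone could turn its sign.

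Fgf21, the gene of a fasting hormone that the liver releases under PPAR alpha, averaged 7.70 ± 0.48 in MC-LR livers and 9.02 ± 1.44 in control livers (log2, SD, n = 3 each). The MC-LR livers spanned 7.15 to 8.05, and control 3 lay 2.45 below the mean of controls 1 and 2, inside the MC-LR range. The difference was -1.33 ± 0.72 (SE, adjusted p = 0.486, limma), and a second probe of the gene gave -1.21. Its direction turned with the control used: it was -2.14 without control 3 and 0.31 with slide as a block.

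Vnn1, which encodes the pantetheinase vanin-1, averaged 6.51 ± 1.69 in MC-LR livers and 7.07 ± 1.12 in control livers (log2, SD, n = 3 each). MC-LR liver 2 stood 2.93 log2 units above the mean of MC-LR livers 1 and 3, so the spread inside the MC-LR group was larger than the difference of -0.56 ± 0.96 (SE, adjusted p = 0.835, limma). Creb3l3 encodes a membrane-bound transcription factor of hepatocytes that acts with PPAR alpha on fasting genes. It averaged 14.67 ± 0.13 in MC-LR livers and 14.43 ± 0.54 in control livers, a difference of 0.24 that was -0.05 without control 3.

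**Figure D2:**
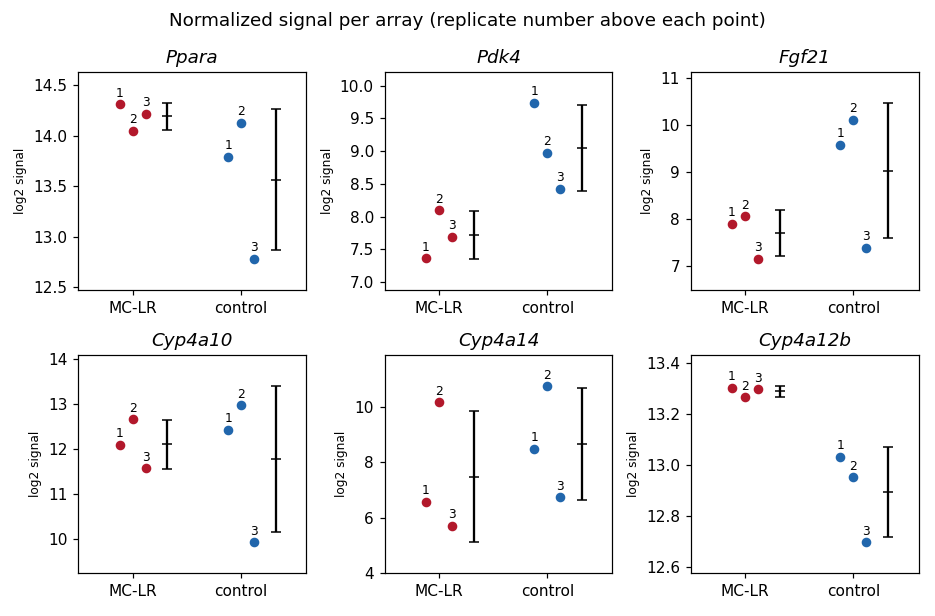
Normalized log2 signal of Ppara, Pdk4, Fgf21, Cyp4a10, Cyp4a14 and Cyp4a12b, with MC-LR livers (red) left of control livers (blue), 1 point per array labelled by replicate number, and bars for the mean and SD of each group. The vertical axes differ between panels and do not start at 0. The groups are apart in Pdk4 and Cyp4a12b only, and control 3 is the lowest of the controls in all 6 panels.

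The 3 genes of the carnitine shuttle carry long-chain fatty acids across the mitochondrial membranes. Cpt1a, the liver form of the rate-controlling carnitine palmitoyltransferase, averaged 14.63 ± 0.09 in MC-LR livers and 14.35 ± 0.68 in control livers (log2, SD, n = 3 each), a difference of 0.28, and its other probe gave 0.55. Slc25a20, the carnitine-acylcarnitine carrier of the inner membrane, averaged 9.41 ± 0.22 in MC-LR livers and 9.21 ± 0.29 in control livers, a difference of 0.20. Cpt2, which returns the acyl group to coenzyme A in the matrix, averaged 14.77 ± 0.07 in MC-LR livers and 14.68 ± 0.49 in control livers, a difference of 0.09. All 3 differences were above 0 and none was called, with adjusted p of 0.692 to 0.907 (limma). Leaving out control 3 turned Cpt1a to -0.10 and Cpt2 to -0.19, and left Slc25a20 at 0.13.

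The 10 members of mitochondrial beta-oxidation had differences from -0.22 to 0.32 with a median of 0.03, 6 above 0 and 4 below, and adjusted p of 0.497 to 0.971 (limma). Among the acyl-CoA dehydrogenases, which take the first oxidation step on chains of different length, the differences were -0.09 for Acadvl (very long chains), 0.18 for Acadl (long), -0.11 for Acadm (medium) and 0.24 for Acads (short). Acadvl averaged 15.48 ± 0.03 in MC-LR livers and 15.58 ± 0.41 in control livers (log2, SD, n = 3 each), and Acadm 15.12 ± 0.07 in MC-LR livers and 15.23 ± 0.29 in control livers. Acads averaged 10.54 ± 0.17 in MC-LR livers and 10.30 ± 0.14 in control livers, a difference larger than either standard deviation that did not pass the test (adjusted p = 0.497, limma).

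The trifunctional protein, which carries out the later steps on long chains, is built from the products of Hadha and Hadhb. Hadha averaged 10.61 ± 0.12 in MC-LR livers and 10.58 ± 0.45 in control livers, and Hadhb 13.63 ± 0.05 in MC-LR livers and 13.60 ± 0.43 in control livers (log2, SD, n = 3 each). Both differences were 0.03, and control 3 lay 0.76 (Hadha) and 0.69 (Hadhb) below the mean of the other controls. The other probes of Hadha were dimmer and gave larger differences, 0.57 (signals of 4.04 to 5.48 over the 6 arrays) and 0.72. The mean of its probes gave 0.44, which was not called. On the probe with 0.72 the signals were 8.33, 8.06 and 7.78 in MC-LR livers 1, 2 and 3, against 7.54, 7.42 and 7.03 in control livers 1, 2 and 3, so that there the groups were apart. The genes are neighbours on chromosome 5 that are transcribed away from each other, and their RefSeq promoter windows (GRCm38.p6, 250 bases before to 50 after the start) share 228 bases, chr5:30155003-30155230. The Hadha window is printed because it holds the start of Hadha and the 228 shared bases. All of these lie before the start of Hadhb, which is outside the printed window.
Hadha window, chr5:30154931-30155230, minus strand: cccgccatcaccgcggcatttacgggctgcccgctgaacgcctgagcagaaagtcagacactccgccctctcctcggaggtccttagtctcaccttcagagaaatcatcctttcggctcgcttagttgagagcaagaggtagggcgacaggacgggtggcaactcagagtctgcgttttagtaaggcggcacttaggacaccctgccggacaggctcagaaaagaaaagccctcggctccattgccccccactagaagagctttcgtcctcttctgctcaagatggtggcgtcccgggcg

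The other mitochondrial members gave the same picture of tight MC-LR values and scattered controls. Hadh, the hydroxyacyl-CoA dehydrogenase of medium and short chains, differed by -0.06, and Acaa2, the mitochondrial thiolase, by 0.05. Decr1, a dienoyl-CoA reductase needed for unsaturated fatty acids, averaged 9.79 ± 0.07 in MC-LR livers and 9.48 ± 0.60 in control livers (log2, SD, n = 3 each), a difference of 0.32 that was 0.03 without control 3. Etfdh, which passes electrons from the acyl-CoA dehydrogenases to the respiratory chain, differed by -0.22, while its other probe gave 0.01. In 9 of these 10 mitochondrial genes control 3 was the lowest of the 6 arrays, and in 9 of 10 control 2 was the highest.

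The 4 peroxisomal members did not share that order as closely, with control 3 lowest in 1 of 4. Ehhadh, the peroxisomal bifunctional enzyme and a standard target of PPAR alpha agonists in mice, averaged 12.97 ± 0.25 in MC-LR livers and 13.42 ± 0.44 in control livers (log2, SD, n = 3 each). Its difference of -0.44 ± 0.25 (SE, adjusted p = 0.501, limma) ran from -0.57 to -0.19 over the 16 alternative settings, some of which leave it unchanged by construction. The peroxisomal thiolase genes Acaa1a and Acaa1b differed by 0.10 and 0.06, and because their sequences are very alike a probe may read both. Pex11a, which takes part in peroxisome division, averaged 14.82 ± 0.43 in MC-LR livers and 14.28 ± 0.49 in control livers, a difference of 0.54 ± 0.32 (SE).

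The 5 omega-oxidation genes had differences from -1.18 to 0.45, with 4 above 0 and a median of 0.33. The Cyp4a genes encode fatty acid omega-hydroxylases that lie in a cluster on chromosome 4. Cyp4a10 and Cyp4a14 are among the genes most strongly induced by PPAR alpha in mouse liver, whereas Cyp4a12a and Cyp4a12b are male-predominant forms. Aldh3a2 encodes a fatty aldehyde dehydrogenase that completes the route.

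Cyp4a14 (probe at chr4:115158914-115158973, mm9) had signals of 6.56, 10.17 and 5.71 in MC-LR livers 1, 2 and 3, against 8.49, 10.75 and 6.74 in control livers 1, 2 and 3. MC-LR liver 2 and control liver 2 were the highest, control liver 1 was intermediate and the other livers were low, so the groups overlapped. MC-LR liver 2 lay 4.03 log2 units above the mean of MC-LR livers 1 and 3, and the same liver was the high one for Vnn1. The difference of -1.18 ± 1.46 (SE, adjusted p = 0.766, limma) was smaller than its error. It was -0.13 without control 2, -2.14 without control 3 and -2.52 without MC-LR 2, and with slide as a block it was 0.74.

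Cyp4a10 had signals of 12.09, 12.67 and 11.57 in MC-LR livers 1, 2 and 3, against 12.42, 12.97 and 9.92 in control livers 1, 2 and 3. Controls 1 and 2 lay within or above the MC-LR range and control 3 was the lowest of the 6 arrays. The difference was 0.33 ± 0.81 (SE, adjusted p = 0.891, limma), and it was -0.59 without control 3 and 2.19 with slide as a block. The array carries 4 probes for this gene, and they did not give the same distance between controls. Control 3 differed by -2.78, -2.87 and -2.87 log2 units from the mean of controls 1 and 2 on 3 probes, and by -0.58 on the probe at chr4:115198154-115198213 (mm9). On that probe the signals were 12.18, 12.08 and 12.11 in MC-LR livers 1, 2 and 3, against 11.87, 11.95 and 11.33 in control livers 1, 2 and 3. There all MC-LR livers lay above all controls, whereas the groups overlapped on the other 3 probes. Whether that probe also reads another gene of the cluster was not tested. The probe used for Cyp4a10 has no stated coordinates.

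Cyp4a12b had signals of 13.30, 13.26 and 13.30 in MC-LR livers 1, 2 and 3, against 13.03, 12.95 and 12.70 in control livers 1, 2 and 3. The groups were apart, and the MC-LR livers had a standard deviation of 0.02. The difference was 0.39 ± 0.12 log2 units (SE), or 1.31-fold (unadjusted p = 0.0148, adjusted p = 0.300, limma). It ran from 0.30 to 0.59 over the 16 alternative settings. Because the groups are apart, neither leaving out an array nor using control 3 alone could turn its sign. Cyp4a12a (probe at chr4:115005343-115005402, mm9) had signals of 15.81, 15.71 and 15.77 in MC-LR livers 1, 2 and 3, against 15.66, 15.64 and 15.36 in control livers 1, 2 and 3. Here too the groups were apart, by a difference of 0.21 ± 0.12 (SE, adjusted p = 0.493, limma). The genes are near-identical copies, so a probe may read both, which was not tested. Their differences therefore cannot be counted as separate observations.

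The probes below show what was measured at the Cyp4a cluster. They are a pair of Cyp4a10 probes whose control values disagreed and the Cyp4a12b probe, whose p is the lowest among the members after that of Pdk4. Coordinates are those of the files (mm9), and the first Cyp4a10 probe and the Cyp4a12b probe cover 482 and 935 bases of genome with 60 letters of sequence, as does a probe that spans an intron.
Cyp4a10 probe at chr4:115197445-115197926: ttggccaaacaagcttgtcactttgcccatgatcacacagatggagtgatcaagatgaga
Cyp4a10 probe at chr4:115198154-115198213: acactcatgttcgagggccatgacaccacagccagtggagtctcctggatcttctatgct
Cyp4a12b probe at chr4:115106662-115107596: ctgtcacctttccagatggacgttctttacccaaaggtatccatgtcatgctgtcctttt

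Aldh3a2 averaged 14.04 ± 0.22 in MC-LR livers and 13.60 ± 0.35 in control livers (log2, SD, n = 3 each), a difference of 0.45 ± 0.21 (SE, adjusted p = 0.433, limma). The 1 member of ketone body metabolism, Bdh1, encodes the enzyme that interconverts acetoacetate and beta-hydroxybutyrate. It averaged 14.97 ± 0.07 in MC-LR livers and 15.02 ± 0.22 in control livers, a difference of -0.05. Its other, dimmer probe gave 0.41. There the groups were apart, at 10.59 to 10.90 in MC-LR livers and 10.10 to 10.44 in control livers. Among the 8 members with more than 1 probe, 10 of 12 other probes had the direction of the probe used, the exceptions being those of Bdh1 and Etfdh. The groups were apart on the other probes described so for Hadha, Cyp4a10 and Bdh1, and overlapped on the rest. Over all genes, read from the probe used, 20.5% had groups apart.

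Across arrays, the members' values varied most between the control livers. Relative to its mean over the 6 arrays, the median member stood at -0.04, 0.07 and 0.05 log2 units in MC-LR livers 1, 2 and 3, against 0.01, 0.33 and -0.42 in control livers 1, 2 and 3. Control 3 was the lowest of the 6 arrays in 18 of 28 members, against 23.4% of all genes, and control 2 the highest in 17 of 28, against 15.3% of all genes. In 20 of 28 members (71.4%) control 3 lay below all 3 MC-LR livers, against 33.1% of all genes, and in 7 of 28 (25.0%) controls 1 and 2 both lay above all 3 MC-LR livers, against 22.7% of all genes. Control 3 minus the mean of controls 1 and 2 had a median of -0.64 over the members and -0.02 over all genes. By role this median was -1.19 for the 4 regulators and partners, -0.82 for the carnitine shuttle, -0.56 for mitochondrial beta-oxidation, -0.29 for omega-oxidation and -0.16 for the peroxisomal genes.

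**Figure D3:**
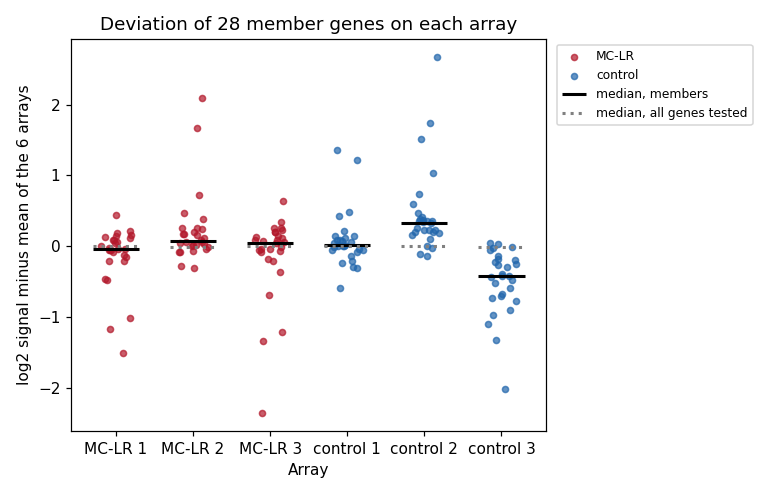
Normalized log2 signal of each of the 28 member genes minus its mean over the 6 arrays (vertical axis), by array (horizontal axis), for MC-LR (red) and control (blue). Black lines are the members' medians, -0.04, 0.07 and 0.05 on MC-LR arrays 1, 2 and 3 and 0.01, 0.33 and -0.42 on control arrays 1, 2 and 3, and dotted lines are the medians of all genes tested.

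The members' direction depended on which controls were used. With slide as a block the contrast is that of the MC-LR livers with control 3, and 25 of 28 members then lay above 0, with a median of 0.40. None was called (15 of 18888 genes were, 0.0794%), and 14 members were higher at an unadjusted limma p under 0.05, where 7.98% of all genes were. The control side of that contrast is 1 array, the lowest of the 6 in 18 members, and its p takes the spread from the other arrays, on the assumption that control 3 varies as they do. Without control 3, when slide and group coincide, 11 members lay above 0 and 17 below, with a median of -0.13. The direction of 9 members turned with slide as a block and that of 7 others turned without control 3, while the remaining 12 kept 1 direction in all 16 alternative settings. Those 12 were Ppara, Slc25a20, Acadl, Acads, Decr1, Acaa1a, Pex11a, Cyp4a12a, Cyp4a12b and Aldh3a2, above 0 throughout, and Pdk4 and Ehhadh, below 0 throughout. Slide, scan and the individual control mice cannot be told apart here.

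**Figure D4:**
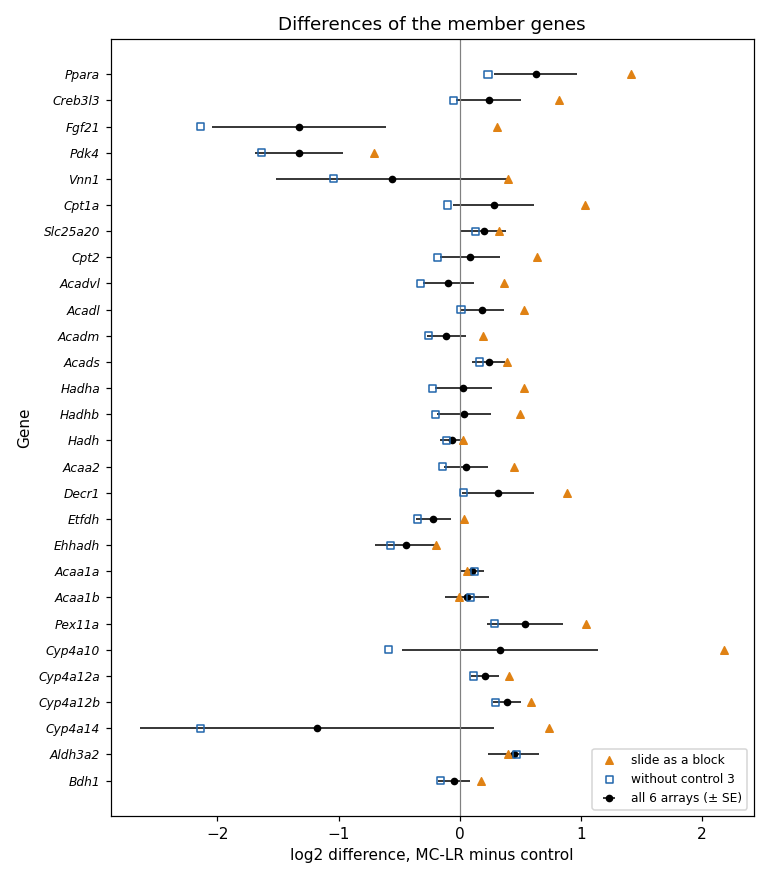
Log2 difference, MC-LR minus control, of the 28 member genes from all 6 arrays (black points with SE), without control 3 (open squares) and with slide as a block (orange triangles). Most triangles lie to the right of the black points and most squares to the left, and Pdk4 and Ehhadh are left of 0 in all 3 versions.

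The members' promoters were searched for the element that PPAR alpha and its partner bind, a direct repeat with 1 spacer letter, AGGTCANAGGTCA, on both strands with at most 2 mismatches in its 12 fixed letters. In RefSeq windows of 300 bases around the gene start (GRCm38.p6), 21 members had a window, and 2 of their 23 windows held a match (8.70%), against 1268 of 32851 windows of all genes (3.86%). One match lies in the window of Slc25a20, 6 bases after the start, and the other in 1 of the 2 windows of Creb3l3, 209 bases before the start. Both have 2 mismatches. The members without a window were Acaa2, Cyp4a10, Cyp4a12a, Cyp4a12b, Cyp4a14, Decr1 and Vnn1. A match is a likeness of letters and no measured site, and the absence of one says nothing of more distant elements. The windows with a match are printed with the match in capitals, beside that of Pdk4, the member with the lowest p, whose window has none.
Slc25a20 window, chr9:108661886-108662185, plus strand: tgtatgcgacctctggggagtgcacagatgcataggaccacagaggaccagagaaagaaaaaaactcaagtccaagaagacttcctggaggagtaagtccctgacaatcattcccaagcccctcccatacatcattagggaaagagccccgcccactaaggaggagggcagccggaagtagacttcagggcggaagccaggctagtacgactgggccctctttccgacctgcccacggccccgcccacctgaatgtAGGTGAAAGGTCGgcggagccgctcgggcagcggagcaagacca
Creb3l3 window, chr10:81092542-81092841, minus strand: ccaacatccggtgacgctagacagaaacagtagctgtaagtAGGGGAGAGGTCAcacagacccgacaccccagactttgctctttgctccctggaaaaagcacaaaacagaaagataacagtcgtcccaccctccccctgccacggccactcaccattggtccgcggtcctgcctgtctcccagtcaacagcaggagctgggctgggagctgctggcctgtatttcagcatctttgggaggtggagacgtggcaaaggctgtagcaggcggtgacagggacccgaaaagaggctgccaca
Pdk4 window, chr6:5496229-5496528, minus strand: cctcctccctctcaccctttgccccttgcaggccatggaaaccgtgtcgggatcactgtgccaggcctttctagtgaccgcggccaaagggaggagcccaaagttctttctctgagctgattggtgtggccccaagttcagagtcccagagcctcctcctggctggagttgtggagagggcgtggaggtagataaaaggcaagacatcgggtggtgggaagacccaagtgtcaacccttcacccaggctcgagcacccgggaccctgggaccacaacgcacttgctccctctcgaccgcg

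Neither gene with a match was called. Slc25a20, whose MC-LR values were 9.15 to 9.56 and control values 9.01 to 9.54, and Creb3l3, whose MC-LR values were 14.54 to 14.80 and control values 13.85 to 14.91, both had groups that overlapped.

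Beyond the 28 members, 112 other genes of fatty acid transport, activation, oxidation, ketone metabolism and PPAR signalling were listed, of which 111 had a probe and 108 passed the filter. None of these 108 was called either (limma), and 12 were higher and 3 lower at an unadjusted p under 0.05, where 7.51% of all genes were higher and 5.37% lower. Of the 108, 76 lay above 0 and 32 below (70.4% above 0, against 48.6% of all genes), with a median of 0.15. In 23 all MC-LR values lay above all control values and in 4 all lay below, arrangements found in 11.3% and 9.23% of all genes. Those given next, 7 genes among those of smallest p, are described by their values, since none passed.

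Esrra, the gene of an orphan nuclear receptor that drives mitochondrial oxidative genes, had signals of 12.25, 12.17 and 12.22 in MC-LR livers 1, 2 and 3, against 11.38, 11.54 and 11.58 in control livers 1, 2 and 3. The groups were apart by more than their spread, with a difference of 0.72 ± 0.10 (SE, adjusted p = 0.155, limma). Rxra, the retinoid X receptor that pairs with PPAR alpha, had signals of 15.05, 15.04 and 14.86 in MC-LR livers 1, 2 and 3, against 14.22, 14.41 and 14.70 in control livers 1, 2 and 3. Its groups were also apart, with a difference of 0.54 ± 0.15 (SE, adjusted p = 0.281, limma). That difference was 0.67 without control 3, 0.29 with slide as a block and 0.36 with the mean of its probes. Unlike for most members, control 3 was not the lowest control for either receptor gene.

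The others above 0 were Pdk2, a sister kinase of Pdk4, at 0.65, the fatty acid transporter Slc27a1 at 0.62 and the medium-chain acyl-CoA synthetase Acsm5 at 0.58. Below 0 were Acox2, a peroxisomal oxidase of branched chains and bile acid precursors, at -0.56, and Gdf15, a cytokine of cell stress, at -1.39. Pdk4 and Pdk2 thus lay on opposite sides of 0, at -1.33 and 0.65. None of these 7 changed direction in any of the 16 alternative settings, and none was called in any. The groups of all 7 were apart, so leaving out an array could not turn their direction.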

How the data were processed

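The 6 single-colour arrays, 3 of MC-LR and 3 of control liver, were grouped and numbered by sample title. The deposited scanner tables hold spot intensity. Per the submitters' processing notes, it was extracted with Agilent Feature Extraction 10.7. The processed signal is background-subtracted within the array, per the file headers. The authors' deposited value table holds log2 values, quantile normalized in GeneSpring per the labels' design text. Its columns correlated at 0.998 or more with log2 of the same array's processed signal, each with a median of 5.94, so it is not centred by gene and its direction is that of the signal. It served as an alternative and to choose a gene's probe.

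Processed intensity was floored at 1, log2 transformed, stripped of outlier spots, averaged over replicate spots and quantile normalized. Of 41174 probes, 31437 were named by symbol, 2200 by synonym and 91 by accession through RefSeq, and 7446 kept the file's name. Genes that passed in either group, by being well above background in its 3 livers, were tested with limma 3.58.1 in R 4.3.3 (4 residual and 2.05 prior degrees of freedom, two-sided). Values are given by array for Ppara, the Cyp4a genes and members with separate groups or an unadjusted p under 0.05, and for the 8 other pathway genes with the smallest p as values or differences, of which 1 is not reported here. Members and lists were chosen with earlier results of these data known. The steps were tested on simulated data. Alternatives were 75th percentile scaling, normexp (offset 50) with quantile normalization, the deposited values, no filter, a strict filter, the mean of a gene's probes, blocks for slide or replicate number, slide 2 alone, a robust eBayes with trend, and each array left out.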

Additional observations from a re-analysis of the deposited data

How the results depend on the processing

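With 3 livers a group, and 1 control on the slide of the MC-LR arrays, a member that misses the threshold is not shown to be the same in both groups. All members were well above background by the scanner flag, so none was lost to dim signal. The size of the dimmest members' differences still depended on background treatment. From the main analysis to normexp, Vnn1 went from -0.56 to -0.24 and Cyp4a14 from -1.18 to -0.84. Fgf21 went from -1.33 to -1.13 and Pdk4 from -1.33 to -1.02. No member and none of the other pathway genes was called in the main analysis or in any of 16 alternatives. The count over all genes, 3, was 1 with 75th percentile scaling, normexp or the strict filter, 5 with no filter, 15 with slide as a block and 0 for slide 2 on its own (limma, with 2356 genes at an unadjusted p under 0.05), and 1 to 90 when an array was left out, with 90 without control 3. Replicate numbers did not pair the livers (r of 0.19, -0.32 and -0.20 for numbers 1, 2 and 3), and with the replicate number as a block 0 genes were called (limma, 1836 at an unadjusted p under 0.05). Members whose groups were apart numbered 5 with 75th percentile scaling (4 of them higher) and 3 to 11 when an array was left out, 2 to 10 of them higher and 1 to 7 lower. Groups of 3 and 2 are apart more often: over all genes the share was 20.5% with all arrays, 19.8% with 75th percentile scaling and 24.9% to 43.5% with an array left out. The 11 members (39.3%) came without control 2, where the share of all genes was 27.7%, and the 9 (32.1%) without control 3, where it was 43.5%. The members' median difference was 0.40 with slide as a block and -0.13 to 0.22 with an array left out.

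The directions that turned are these. With 75th percentile scaling Bdh1 was 0.027 and Hadh 0.029, and with the mean of probes Bdh1 was 0.18. With slide as a block and within slide 2, Cyp4a14 was 0.74, Vnn1 0.40, Acadvl 0.37, Fgf21 0.31, Acadm 0.19, Bdh1 0.18, Etfdh 0.032, Hadh 0.028 and Acaa1b -0.0075. With an array left out, the difference ran from -0.59 to 0.93 for Cyp4a10, -1.54 to 0.056 for Vnn1, -0.10 to 0.55 for Cpt1a, -0.052 to 0.48 for Creb3l3, -0.19 to 0.29 for Cpt2, -0.20 to 0.23 for Hadhb, -0.22 to 0.20 for Hadha, -0.14 to 0.17 for Acaa2, -0.081 to 0.18 for Acaa1b, -0.33 to 0.056 for Acadvl, -0.26 to 0.025 for Acadm and -0.16 to 0.057 for Bdh1. The cause was not tested.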
